A study of Mus musculus with 4 samples.

Results

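CTCF-dense windows are 100 kb stretches of the mouse genome that hold 8 or more CTCF peaks. Each of the 19 autosomes was divided into fixed 100 kb windows from its first base (build mm10), and a window was called dense when at least 8 midpoints of the CTCF peak list fell in it. The dense windows were thus selected on the CTCF list itself. There were 1140 of them among 24612 windows (4.63%), and the remaining 23472 are called other windows.

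The peak lists came from ChIP-exo, an immunoprecipitation of chromatin followed by exonuclease digestion up to the crosslinked protein, in Bruce-4 cells, an embryonic stem cell line of C57BL/6J mice. The cells were untreated, grown with serum, 2i and LIF, and fixed with 1% formaldehyde for 10 min at 10000000 cells per replicate. The 4 libraries comprised 2 for CTCF, 1 for RAD21 and 1 for H3K4me3, and 1 peak list per antibody was used, the CTCF list being a union whose contributing libraries are not stated. Each list gives positions only, so depth and peak height were unknown, and a window without a peak shows only that none was called. With 1 list per antibody no test over samples could be made. Spreads below are the SD over the 19 autosomes, which are not replicates, and intervals are Wilson 95% intervals, which cover counting error only. H3K4me3 lay within 1 kb of an end of 9 of 10 embryonic stem cell marker genes (not at Esrrb), 2 of 8 fibroblast markers (Thy1 and Twist1) and 1 of 8 markers of differentiated tissues (Cd3e). Of all protein-coding genes on the autosomes 58.0% had it there.

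CTCF is a zinc finger protein that binds a long, directional DNA motif and serves as an insulator. Cohesin, a ring-shaped complex of which RAD21 is a subunit, extrudes loops of chromatin and is halted at bound CTCF, so that many CTCF sites also carry cohesin. H3K4me3 is a histone mark of the promoters of active and poised genes, and in embryonic stem cells it is found at most promoters rich in CpG dinucleotides.

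The DNA under the peaks is shown for 6 dense windows, because it lets the CTCF site be read beside a gene start. The letters CCNNNAGNNGGC, a short form of the CTCF core motif, were searched on both strands of RefSeq promoter sequence of GRCm38.p6, which covers 250 bases before to 50 bases after a gene start. Of whole CTCF peaks inside promoters of protein-coding genes, 71 of 244 in dense windows (29.1%, interval 23.8 to 35.1%) and 196 of 717 in other windows (27.3%, 24.2 to 30.7%) held a match. Of dense windows with such a peak and match, the 6 with the most CTCF peaks are shown, ties by chromosome order, 1 peak per window. They held 13 to 15 CTCF peaks, fewer than the 21 of the densest window. Sequences are printed 5′ to 3′ on the strand of the gene with the match in capitals.
Nectin2: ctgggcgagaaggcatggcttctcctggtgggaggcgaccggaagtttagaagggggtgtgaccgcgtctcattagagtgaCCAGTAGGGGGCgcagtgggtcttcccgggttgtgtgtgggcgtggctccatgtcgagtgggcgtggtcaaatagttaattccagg
Calr: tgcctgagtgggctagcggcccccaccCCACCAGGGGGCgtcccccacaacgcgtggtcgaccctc
Polrmt: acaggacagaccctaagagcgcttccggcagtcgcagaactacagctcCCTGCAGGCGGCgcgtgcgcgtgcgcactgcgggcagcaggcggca
Pigo: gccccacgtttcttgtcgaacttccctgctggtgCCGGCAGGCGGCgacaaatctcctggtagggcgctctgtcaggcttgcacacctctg
Selenov: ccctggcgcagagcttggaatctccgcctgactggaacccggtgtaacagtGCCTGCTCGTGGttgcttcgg
Syngr1: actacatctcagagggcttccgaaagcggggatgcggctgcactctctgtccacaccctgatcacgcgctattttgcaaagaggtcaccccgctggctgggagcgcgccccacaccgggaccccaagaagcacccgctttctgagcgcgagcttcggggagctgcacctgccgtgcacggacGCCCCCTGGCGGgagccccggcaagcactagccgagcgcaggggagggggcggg

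The peak of Nectin2, a cell adhesion molecule, was at chr7:19749657-19749823 (minus strand), with its midpoint 167 bp upstream of the gene start. It overlapped a RAD21 peak and no H3K4me3 peak, in a window of 15 CTCF, 13 RAD21 and 8 H3K4me3 peaks. The peak of Calr, which encodes the chaperone calreticulin, was at chr8:84847080-84847145 (minus strand), 182 bp upstream, and overlapped neither RAD21 nor H3K4me3. Polrmt, the mitochondrial RNA polymerase, had its peak at chr10:79746552-79746645 (minus strand), 18 bp upstream, with H3K4me3 and without RAD21. The peak of Pigo, an enzyme of the GPI anchor pathway, was at chr4:43025829-43025919 (minus strand), 60 bp upstream, and overlapped both other marks. So did that of the selenoprotein gene Selenov at chr7:28291174-28291245 (minus strand), 24 bp upstream. Syngr1, a synaptic vesicle protein, had its peak at chr15:80091092-80091327 (plus strand), 124 bp upstream, with H3K4me3 and without RAD21. In 4 of the 6 the match ran on the strand of the gene, and in Selenov and Syngr1 on the opposite strand.

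Promoters in dense windows carried CTCF more often. A CTCF peak overlapped 652 of 4510 distinct promoters in dense windows (14.5%) and 1794 of 26855 in other windows (6.68%), a difference that the selection on CTCF feeds into. Among promoters with a CTCF peak, the match was present in 32.1% in dense windows (28.6 to 35.7%) and 32.6% in other windows (30.4 to 34.8%), and the intervals overlap. Among promoters without a CTCF peak it was present in 8.84% (7.98 to 9.78%) against 6.40% (6.10 to 6.71%), beside 6.73% of all 28919 such promoters. Over all 31365 promoters, with or without a CTCF peak, it was present in 8.73%. The median GC content of promoters was 58.3% in dense and 51.7% in other windows, and the part of base composition in the motif shares was not tested. A match is a string of letters, not a measured binding site.

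Dense windows held 8 to 21 CTCF peaks each, with a median of 9. Exactly 8 peaks were found in 433 windows and exactly 7, just outside the rule, in 598. Windows of 8 and of 7 peaks averaged 8.17 and 7.52 RAD21 peaks, 3.10 and 2.75 H3K4me3 peaks, and 2.54 and 2.25 protein-coding genes. All dense windows together made up 4.63% of the windows. They held 10754 of 50546 CTCF peaks (21.3%), 10268 of 74004 RAD21 peaks (13.9%) and 4119 of 21006 H3K4me3 peaks (19.6%).

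The cohesin subunit RAD21 was more frequent in dense windows, and the excess lay mainly in RAD21 peaks that overlap CTCF. Dense windows averaged 9.01 RAD21 peaks (range 3 to 16) and other windows 2.72 (range 0 to 13). The difference averaged 6.24 ± 0.473 peaks (SD over 19 autosomes), with dense windows higher on 19 of 19, and the ratio of the means was 3.32. RAD21 peaks that overlapped CTCF averaged 7.20 in dense and 1.41 in other windows, a difference that partly follows from the rule. RAD21 peaks that overlapped no CTCF peak averaged 1.81 and 1.30. Dense windows were higher in these on 18 of 19 autosomes, by 0.541 ± 0.341 peaks. Against windows of 5 to 7 CTCF peaks, which averaged 1.93 RAD21 peaks without CTCF, dense windows were higher on only 5 of 19 autosomes.

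RAD21 without CTCF did not climb with the CTCF count past the sparse windows. It averaged 0.795 per window with no CTCF peak, 1.62 with 2, 1.90 with 4, 1.96 with 6, 1.92 with 8 and 1.51 with 12 or more. Over the same range total RAD21 averaged 0.795, 3.36, 5.21, 6.74, 8.17 and 11.2 peaks. H3K4me3 averaged 0.140, 0.823, 1.52, 2.3, 3.10 and 4.69 peaks at these counts. Protein-coding genes averaged 0.357, 0.783, 1.27, 1.87, 2.54 and 3.81. The 3 climbing measures passed the threshold of 8 without a step, as the plot of window contents by CTCF count shows.

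**Figure D1:**
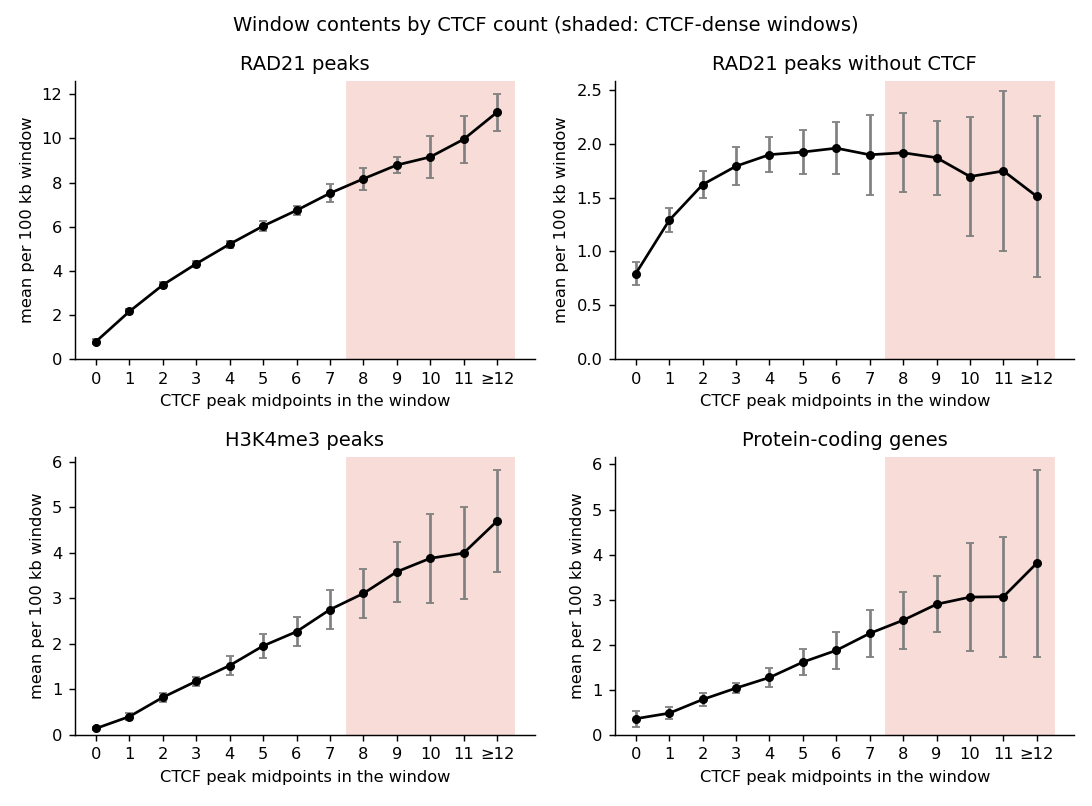
Mean number of RAD21 peaks, RAD21 peaks without CTCF, H3K4me3 peaks and protein-coding genes per 100 kb window (y axes) by the number of CTCF peak midpoints in the window (x axes, 12 standing for 12 or more); bars are the SD over the autosomes and the shaded range marks CTCF-dense windows. RAD21, H3K4me3 and genes climb across the whole range, while RAD21 without CTCF stays between 1.51 and 1.96 from 4 CTCF peaks up.

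Windows rich in cohesin peaks were only in part the CTCF-dense ones. Of all windows 1869 (7.59%) held 8 or more RAD21 peaks, and 862 of them were CTCF-dense. These 862 are 75.6% of the CTCF-dense windows and 46.1% of the windows with 8 or more RAD21 peaks. RAD21 peaks were fewer than CTCF peaks in 566 dense windows, equal in 218 and more in 356.

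In dense windows a smaller share of CTCF peaks coincided with cohesin. Of CTCF peaks, 8188 of 10754 in dense windows (76.1%, 75.3 to 76.9%) and 33160 of 39792 in other windows (83.3%, 83.0 to 83.7%) overlapped a RAD21 peak by 1 bp or more. The share was lower in dense windows on 19 of 19 autosomes, and the difference averaged -7.21 ± 1.86 percentage points. Every CTCF peak overlapped RAD21 in 101 dense windows, and under 50% did so in 39. In the other direction 79.9% of RAD21 peaks in dense windows and 52.1% in other windows overlapped CTCF, which the choice of windows by CTCF favours.

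The pooled share was lower in dense windows at each CTCF peak length and place, though in some of these the difference was within the spread over autosomes. When the list was divided into 5 groups of like size by peak length, of the shortest CTCF peaks (37 to 49 bp), 31.5% in dense and 50.1% in other windows overlapped RAD21. In the following length groups the shares were 74.7% and 86.4%, then 87.3% and 92.3%, then 86.4% and 92.0%, and for the longest peaks 95.1% and 97.1%. Dense windows were lower on 19 of 19 autosomes in the 2 shortest groups, on 17 in the third and on 18 in the next. In the third the difference averaged -4.72 ± 5.36 percentage points, within the spread. For the longest peaks dense windows were lower on 13 of 19, by an average of -1.26 ± 3.00 percentage points, which is within the spread. Within 1 kb of a gene end the shares were 72.6% in dense and 78.2% in other windows, inside genes 74.9% and 82.5%, and between genes 81.1% and 86.4%. Dense windows were lower inside genes on 19 of 19 autosomes and between genes on 17. At gene ends they were lower on 15, with an average difference of -4.76 ± 5.88 points, within the spread. CTCF peaks of dense windows were not shorter, with a median of 110 bp in dense and 103 bp in other windows. CTCF peaks of 37 to 39 bp, which include the most common length in the list, made up 13.5% and 15.4%.

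**Figure D2:**
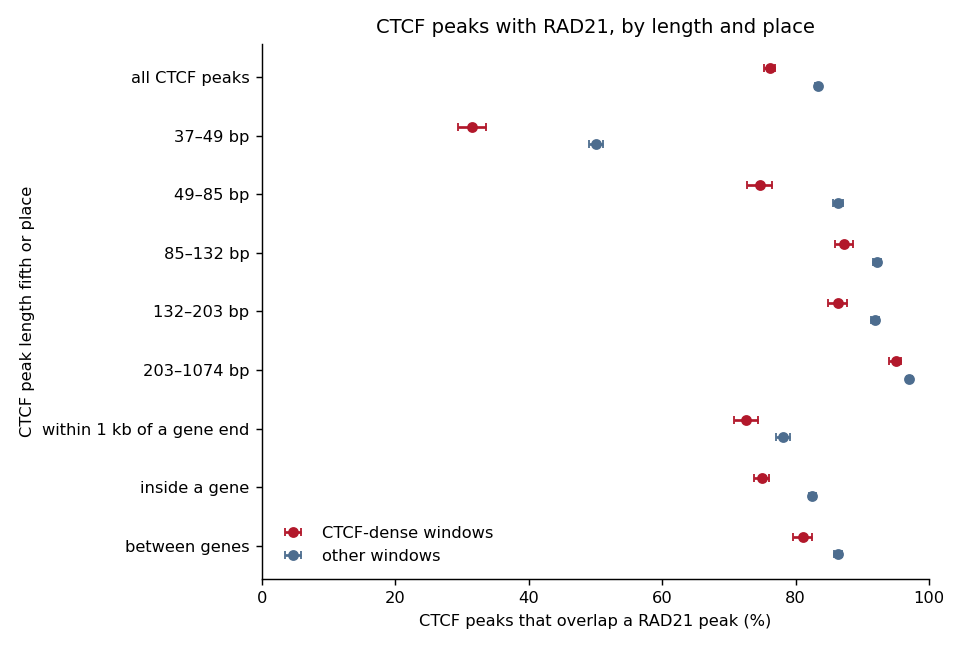
Share of CTCF peaks that overlap a RAD21 peak (x axis, percent) for all CTCF peaks, for 5 groups by CTCF peak length and by place relative to genes (y axis), in CTCF-dense windows (red, upper point) and other windows (blue, lower point); bars are Wilson 95% intervals. Each red point lies left of its blue point, and the gap is widest for peaks of 37 to 49 bp (31.5% and 50.1%).

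Neighbouring CTCF peaks were close together in dense windows, as the rule requires. The median distance from a CTCF midpoint to the nearest other one was 4054 bp in dense windows and 10250 bp in other windows, and another midpoint lay within 1 kb for 14.2% and 7.54% of peaks. CTCF peaks with such a close neighbour overlapped RAD21 at 67.9% in dense and 69.7% in other windows (intervals 65.5 to 70.2% and 68.0 to 71.3%, which overlap). For CTCF peaks with no neighbour within 1 kb the shares were 77.5% and 84.4%.

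Genes were several times as frequent in dense windows. A protein-coding gene midpoint lay in 89.8% of dense windows (87.9 to 91.4%) and 41.3% of other windows (40.7 to 41.9%), beside 43.5% of all windows. Dense windows averaged 2.91 protein-coding genes (range 0 to 17) and other windows 0.739, a difference of 2.15 ± 0.599 that was positive on 19 of 19 autosomes. lncRNA genes averaged 1.06 and 0.477 per window, and were higher in dense windows on 19 of 19. MicroRNA genes averaged 0.188 and 0.0393 (19 of 19) and snoRNA genes 0.106 and 0.0496 (15 of 19). The snoRNA difference averaged 0.0489 ± 0.0651, within the spread over autosomes. For tRNA genes, at 0.0465 and 0.0144 per window, dense windows were higher on 11 of 19 autosomes, by 0.0258 ± 0.0518, a difference within the spread. Pseudogenes averaged 0.349 and 0.362 and did not share the pattern, with dense windows higher on 10 of 19.

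Genes of dense windows were shorter and more often marked. Of 20665 protein-coding genes, 3318 (16.1%) had their midpoint in a dense window. Their median length was 11734.5 bp, against 19484 bp for genes of other windows, and it was shorter on 19 of 19 autosomes. H3K4me3 lay within 1 kb of an end of 72.2% of them (70.7 to 73.7%), against 55.2% of genes in other windows (54.5 to 56.0%) and 58.0% of all. The share was higher in dense windows on 18 of 19 autosomes, by 16.0 ± 9.95 percentage points. At RefSeq start sites alone, where strand was known, the shares were 74.7% and 57.6%. For lncRNA genes the shares with H3K4me3 at an end were 38.8% and 17.8%.

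At marked genes RAD21 shares in dense and other windows had overlapping intervals, and CTCF shares did not. Among protein-coding genes with H3K4me3 at an end, RAD21 lay within 1 kb of an end of 55.3% in dense windows (53.3 to 57.3%) and 56.2% in other windows (55.2 to 57.2%). The difference had no common direction, with dense windows higher on 11 of 19 autosomes. CTCF lay at 53.0% of these genes in dense windows and 34.1% in other windows, and RAD21 without CTCF at 12.5% and 27.3%, both linked to the selection on CTCF.

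H3K4me3 peaks averaged 3.61 per dense window (range 0 to 13) and 0.719 per other window, a ratio of 5.02. Dense windows were higher on 19 of 19 autosomes, by 2.84 ± 0.536 peaks. At least 1 H3K4me3 peak lay in 94.0% of dense windows (92.5 to 95.3%) and 36.7% of other windows (36.1 to 37.4%), beside 39.4% of all windows. The peaks themselves were of like length, with medians of 686 bp in dense and 682 bp in other windows. Of H3K4me3 peaks in dense windows 66.3% lay at a gene end, against 62.8% in other windows, with dense windows higher on 13 of 19 autosomes. That difference averaged 4.57 ± 8.01 percentage points, within the spread. Between genes lay 9.25% and 14.5%. A RAD21 peak overlapped 27.4% of H3K4me3 peaks in dense windows and 32.7% in other windows, lower in dense windows on 16 of 19 autosomes. The difference in this share averaged -3.37 ± 4.93 percentage points, also within the spread.

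In pooled means the excess of H3K4me3 remained when windows of like gene number were compared. With 7 or more genes it was within the spread over autosomes. Gene number here counts midpoints, so a window with no gene by this count can still overlap one. In windows with no protein-coding or lncRNA gene midpoint, H3K4me3 averaged 1.03 peaks in 32 dense windows and 0.180 in 9786 other windows. Dense windows of this kind were higher on 13 of the 15 autosomes that had them, by 0.870 ± 0.834 peaks. With 1 gene the means were 2.02 and 0.564, with 2 to 3 genes 2.73 and 1.26, and with 4 to 6 genes 4.14 and 2.3. With 7 or more genes they were 6.14 in 168 dense and 3.98 in 210 other windows, with dense windows higher on 15 of 19 autosomes. The difference there averaged 1.29 ± 2.22 peaks. In the strata from 1 to 6 genes dense windows were higher on 19 of 19. The ratio of the means was smaller at higher gene number, at 5.72 with no gene, 3.57 with 1, 2.17 with 2 to 3, 1.82 with 4 to 6 and 1.54 with 7 or more. RAD21 without CTCF, at like gene number, averaged 1.47 in dense and 0.890 in other windows with no gene, 1.89 and 1.38 with 1 gene, and 1.76 and 1.74 with 2 to 3 genes. With 4 to 6 genes it averaged 1.78 in dense and 1.89 in other windows, and with 7 or more 2.01 and 1.96. From 2 genes up the differences were thus small beside their SD over autosomes of 0.533 to 0.675.

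**Figure D3:**
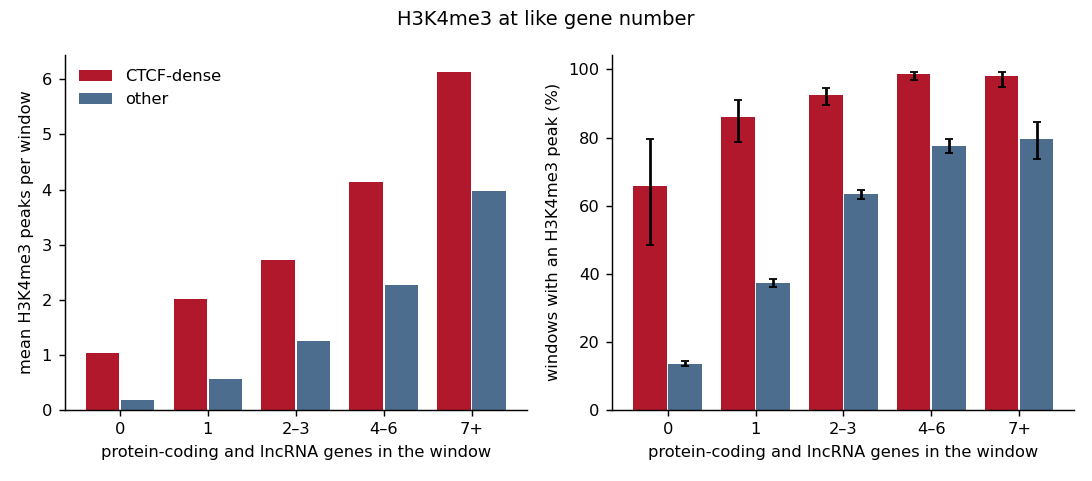
Mean H3K4me3 peaks per window (left) and share of windows with at least 1 H3K4me3 peak with Wilson 95% intervals (right), by the number of protein-coding and lncRNA gene midpoints in the window (x axes), for CTCF-dense windows (red) and other windows (blue). The red bar is higher at each gene number, from 1.03 against 0.180 peaks with no gene midpoint to 6.14 against 3.98 with 7 or more.

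The window with the most CTCF was that of Pou5f1, which encodes the pluripotency factor OCT4. At chr17:35500001-35600000 it held 21 CTCF peaks, 13 of which overlapped RAD21, with 15 RAD21 and 6 H3K4me3 peaks. Its 6 protein-coding genes included Tcf19, Cchcr1 and 2300002M23Rik, which like Pou5f1 had H3K4me3 at an end, and Cdsn, the skin adhesion protein corneodesmosin, which did not. Neither window next to it was dense. The window at chr4:152100001-152200000 came next with 18 CTCF, 12 RAD21 and 7 H3K4me3 peaks. It held Espn, an actin-bundling protein of sensory hair cells, and Tnfrsf25, a death receptor, both with H3K4me3 at an end, and Hes2, a transcriptional repressor, without. The window at chr2:168900001-169000000 had 17 CTCF, 11 RAD21 and 8 H3K4me3 peaks around a single protein-coding gene, the zinc finger gene Zfp64.

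There were 11 windows with 15 CTCF peaks, of which the first 5 in chromosome order complete the 10 windows named for the most CTCF. They differed in their marks. That at chr4:148100001-148200000 had 8 H3K4me3 peaks and H3K4me3 at an end of all 5 of its genes, the axon guidance gene Draxin, the F-box genes Fbxo2, Fbxo6 and Fbxo44, and Mad2l2. The window at chr5:135100001-135200000 had 7 H3K4me3 peaks, with Bcl7b and Tbl2 marked and Mlxipl, which encodes a glucose-responsive transcription factor, unmarked. At chr4:136600001-136700000 there was 1 H3K4me3 peak, and neither Lactbl1 nor Tex46 was marked. RAD21 ranged from 10 to 15 peaks over the 10 named windows, and 1 of the 10 had no H3K4me3 peak.

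The clustered protocadherin genes, cell surface proteins of neurons whose alternative promoters are known to be bound by CTCF, accounted for 3 of the windows named by the rules used here. On chromosome 18, the window at chr18:36900001-37000000 in the alpha array held 17 CTCF, 12 RAD21 and 1 H3K4me3 peaks and no gene midpoint. The window at chr18:37400001-37500000 in the beta array held 17 CTCF, 13 RAD21 and no H3K4me3 peaks, with 13 protein-coding genes among them Pcdhb10, Pcdhb11 and Pcdhb12. The window at chr18:37700001-37800000 in the gamma array held 15 CTCF, 14 RAD21 and 11 H3K4me3 peaks, with 17 protein-coding genes. By their midpoints 34 of 57 clustered protocadherin genes (59.6%) lay in dense windows, which were the beta and gamma ones and chr18:37300001-37400000. The dense alpha window overlaps genes such as Pcdha1 and Pcdha6, whose midpoints lie outside it. With windows moved by 50 kb 43 of the 57 lay in dense windows (75.4%, against 15.9% of all protein-coding genes). With 6 or more CTCF midpoints 49 did (86.0% against 30.6%). With the windows of the rule, all 34 had RAD21 at an end, 33 had CTCF and 15 had H3K4me3. Of the 23 in other windows 23 had RAD21, 20 CTCF and 4 H3K4me3. Of all protein-coding genes in dense windows 49.5% had RAD21 at an end, 48.0% CTCF and 72.2% H3K4me3. In other windows these shares were 37.5%, 23.3% and 55.2%. The gamma genes share their last exons and with them the annotated 3′ end, where a RAD21 or CTCF peak counts for each of them.

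Dense windows without a protein-coding gene midpoint numbered 116 (10.2%), and 32 had no lncRNA midpoint either. The one with the most CTCF outside the protocadherin arrays was at chr11:75900001-76000000, which overlaps Rph3al, with 14 CTCF, 14 RAD21 and 1 H3K4me3 peaks. Windows at chr2:168400001-168500000, which overlaps Nfatc2, and at chr5:119700001-119800000, which overlaps the heart and limb regulator Tbx5, had 13 CTCF peaks each. The Nfatc2 window had 11 RAD21 and 1 H3K4me3 peaks, and the Tbx5 window 14 RAD21 and no H3K4me3 peaks. No H3K4me3 peak was called in 68 dense windows (5.96%), and 27 had neither H3K4me3 nor a protein-coding gene midpoint. Among them, the window at chr2:166500001-166600000, which overlaps Prex1, had 12 CTCF and 12 RAD21 peaks.

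The most RAD21 without CTCF and the fewest RAD21 peaks lay in windows of 8 to 10 CTCF peaks. RAD21 without CTCF was most frequent, with 8 peaks each, at chr2:164800001-164900000 and chr8:85400001-85500000. The first of these had 8 protein-coding genes, among them Ctsa and Pltp, and the second had 1, 4921524J17Rik. The fewest RAD21 peaks, 3 each, were in 4 windows. The window of Zmym4 at chr4:126900001-127000000 had 10 CTCF peaks, 7 of them without RAD21. That of Atp6v1a and Naa50 at chr16:44100001-44200000 had 8 CTCF peaks, 6 without RAD21. That of Polr2i, an RNA polymerase II subunit, and Tbcb at chr7:30200001-30300000 had 8, with 5 lacking RAD21. The remaining window, at chr19:53600001-53700000, holds Smc3, itself a cohesin subunit, and had 8 CTCF peaks, 5 without RAD21.

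H3K4me3 peaks were most frequent, at 13, at chr8:84900001-85000000, a window of 13 CTCF and 13 RAD21 peaks. Its 8 protein-coding genes included the erythroid regulator Klf1, the AP-1 subunit Junb, the peroxidase Prdx2, Dnase2a and Rnaseh2a. These 5 had H3K4me3 at an end, which follows from naming genes so marked first. Next came 12 H3K4me3 peaks each at chr10:80100001-80200000, with 9 CTCF and 8 RAD21 peaks, and at chr11:69000001-69100000, with 10 CTCF and 7 RAD21 peaks. The chromosome 10 window holds the cold-inducible RNA-binding protein gene Cirbp and the ATP synthase gene Atp5d. Outside the protocadherin arrays, 12 protein-coding genes each lay at chr11:69600001-69700000, which holds Eif4a1, Fxr2 and Atp1b2, and at chr11:69800001-69900000, which holds Kctd11 and Nlgn2. These 2 windows had 8 CTCF peaks each, and 11 and 6 RAD21 peaks.

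Dense windows often adjoined each other, which is described here without a test since runs use the counts that selected the windows. A dense neighbour was present for 529 of 1140 (46.4%, 43.5 to 49.3%), beside 4.63% of all windows that were dense. There were 611 dense windows alone, 142 runs of 2 windows, 38 of 3, 22 of 4, 7 of 5 and 1 of 8. Genes and H3K4me3 were more frequent in the longer runs while RAD21 was nearly level. Protein-coding genes averaged 2.43 in windows alone, 3.17 in runs of 2 to 3 and 4.35 in runs of 4 or more. H3K4me3 averaged 3.12, 3.81 and 5.31 peaks, and RAD21 8.92, 9.07 and 9.23 peaks in the same order. CTCF averaged 9.19, 9.58 and 10.1 peaks, and the share of CTCF peaks that overlapped RAD21 was 77.1%, 75.6% and 73.5%.

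The longest run covered 8 windows at chr7:44800001-45600000. It held 89 CTCF, 73 RAD21 and 53 H3K4me3 peaks and 56 protein-coding genes, with 9 to 14 CTCF peaks per window. Genes marked by H3K4me3 in it included Atf5 and Irf3, transcription factors of stress and interferon responses, the arginine methyltransferase gene Prmt1, and the ribosomal protein gene Rpl13a. Also marked were Tead2, a transcription factor of the Hippo pathway, the apoptosis gene Bax, the ferritin gene Ftl1 and Ppp1r15a, a phosphatase subunit of the stress response. Cd37, Dkkl1, Hrc, Bcat2 and Hsd17b14 in this run had no H3K4me3 at an end. Of the 7 runs of 5 windows, that at chr3:89100001-89600000 held 46 CTCF, 46 RAD21 and 28 H3K4me3 peaks with 29 protein-coding genes, including Clk2 and Cks1b. That at chr8:84500001-85000000 held 62 CTCF, 49 RAD21 and 38 H3K4me3 peaks, and it includes the Calr and Klf1 windows.

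Windows next to a dense one were intermediate. The 1482 other windows that adjoin a dense window averaged 5.19 RAD21 peaks, 2.20 H3K4me3 peaks and 1.94 protein-coding genes. The 21990 that do not averaged 2.55, 0.620 and 0.658. At a distance of 1000 kb on either side the means, dense windows there included, were 5.16 and 5.10 RAD21 peaks, 1.91 and 1.89 H3K4me3 peaks, and 1.80 and 1.80 protein-coding genes. Without the dense ones, the windows at 1000 kb averaged 4.24 and 4.15 RAD21 peaks, 1.44 and 1.39 H3K4me3 peaks, and 1.45 and 1.48 protein-coding genes, which is above the means of all other windows. RAD21 without CTCF was flat across this range, at 1.91 and 1.94 in the windows 100 kb away and 1.79 and 1.76 at 1000 kb, beside 1.81 in the dense window. These means, dense windows at each distance included, were above the 1.30 of all other windows.

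**Figure D4:**
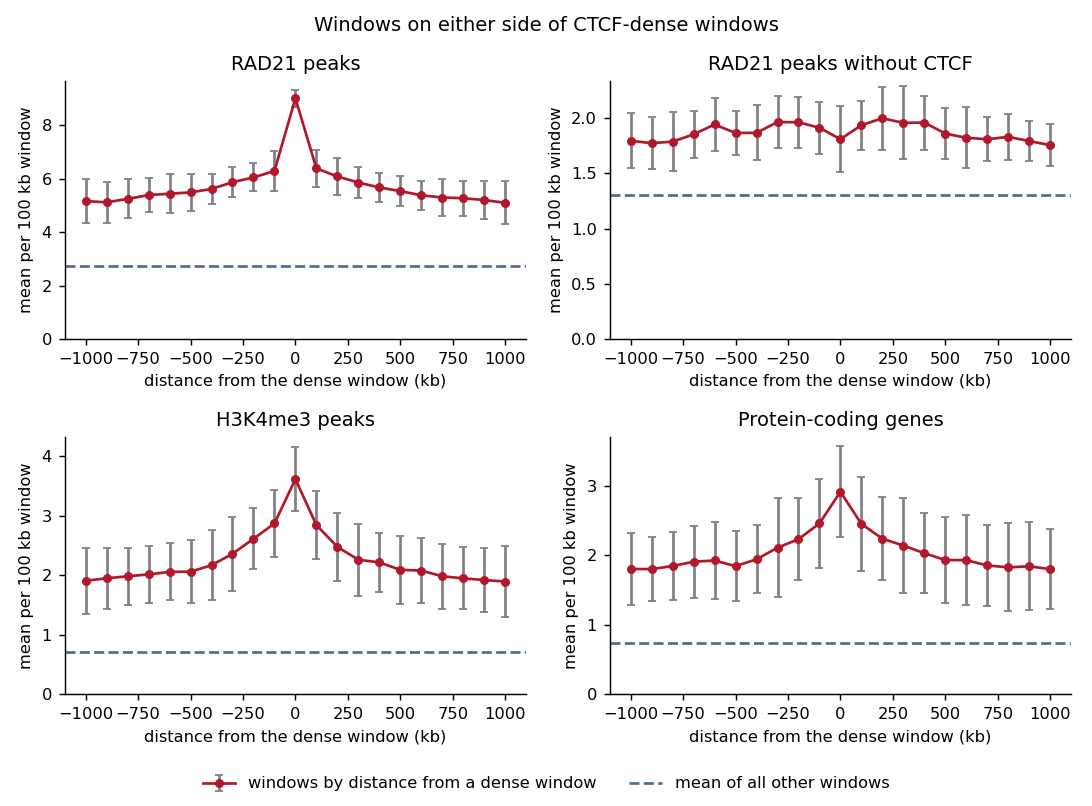
Mean number of RAD21 peaks, RAD21 peaks without CTCF, H3K4me3 peaks and protein-coding genes per 100 kb window (y axes) by distance from a CTCF-dense window (x axes, kb; 0 is the dense window itself); bars are the SD over the autosomes and the dashed line is the mean of all other windows. RAD21, H3K4me3 and genes peak at 0 (9.01, 3.61 and 2.91) and stay above the dashed line out to 1000 kb (points include dense windows, the line does not). RAD21 without CTCF is flat and also lies above its dashed line (1.30) throughout.

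Dense windows were unevenly spread over chromosomes. Chromosome 11 had the highest share, 126 of 1220 windows (10.3%), and chromosome 13 the lowest, 18 of 1204 (1.5%). Protein-coding genes averaged 1.32 per window on chromosome 11 and 0.689 on chromosome 13. Chromosome 7, with the longest run and 1.40 protein-coding genes per window, had 107 dense windows (7.36%).

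Gene groups differed widely in how many members lay in dense windows, read against the 16.1% of all protein-coding genes. The lists were chosen with earlier results of these data known, and members of 1 cluster share windows. Cytosolic ribosomal protein genes, found by symbol and including a few paralogs, had 39 of 78 members (50%, 39.2 to 60.8%) in 37 dense windows. H3K4me3 lay at an end of 37 of the 39, CTCF of 27 and RAD21 of 16. Of their 39 members in other windows 36 had H3K4me3, 14 CTCF and 26 RAD21. Of all protein-coding genes in dense windows 72.2% had H3K4me3 at an end, 48.0% CTCF and 49.5% RAD21. In other windows these shares were 55.2%, 23.3% and 37.5%. The ribosomal protein genes of dense windows include Rpl10a, Rpl11, Rpl12 and Rpl13, in windows of 12, 9, 9 and 8 CTCF peaks. Mitochondrial ribosomal protein genes such as Mrpl10, Mrpl12, Mrpl14 and Mrpl19 had 20 of 78 members (25.6%, 17.3 to 36.3%) in 20 dense windows. Proteasome subunit genes had 8 of 38 (21.1%, 11.1 to 36.3%), among them Psmb4 and Psmb5, an interval that includes 16.1%, and 13 of 38 (34.2%) with windows moved by 50 kb.

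Of 24 pluripotency genes 8 lay in dense windows (33.3%, 18.0 to 53.3%). These were Dppa3, Dppa5a, Gdf3, Lin28a, Nanog, Pou5f1, Sox2 and Utf1, all with H3K4me3 at an end, as had 14 of the 16 in other windows and 58.0% of all protein-coding genes. Only 1 of the 8, Gdf3, had CTCF at an end, and it was also the 1 with RAD21, against 3 and 7 of the 16 in other windows. Of all protein-coding genes in dense windows 48.0% had CTCF at an end and 49.5% RAD21, and in other windows 23.3% and 37.5%. The dense windows of Nanog, a core pluripotency factor, and of Dppa3 and Gdf3 adjoined each other, with 9 CTCF peaks each, in a run of 4 windows at chr6:122500001-122900000. Sox2 lay alone among protein-coding genes at chr3:34600001-34700000, with 8 CTCF, 9 RAD21 and 7 H3K4me3 peaks. Lin28a, which encodes an RNA-binding protein that blocks let-7 maturation, lay in a window of 10 CTCF, 10 RAD21 and 4 H3K4me3 peaks. Among members outside dense windows, Klf4 had 3 CTCF peaks in its window, Esrrb and Zfp42 4 each, and Fgf4, Sall4 and Tdgf1 7 each, just under the rule. With 10 or more midpoints 2 of the 24 lay in dense windows (8.33%, against 6.49% of all protein-coding genes). Without CTCF peaks of 37 to 39 bp 4 did (16.7% against 10.8%), and with windows moved by 50 kb 9 did (37.5% against 15.9%).

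Hox genes, the homeobox genes of body axis patterning, had 17 of 39 members (43.6%, 29.3 to 59.0%) in dense windows, but in only 4 of them. The window at chr6:52200001-52300000 holds 7 Hoxa genes, among them Hoxa10, Hoxa11, Hoxa13 and Hoxa5, with 8 CTCF, 8 RAD21 and 7 H3K4me3 peaks. Germ layer regulators had 4 of 33 members in dense windows (12.1%, 4.82 to 27.3%), Mesp1, Neurog1, Pdx1 and Tbx6. Genes with a Zfp number as symbol, mostly zinc finger genes, had 49 of 386 (12.7%, 9.74 to 16.4%).

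Few olfactory and vomeronasal receptor genes lay in dense windows. The further lists given here also had shares below 16.1%, with intervals or settings that limit the reading. Olfactory receptor genes had 4 of 1100 (0.364%, 0.141 to 0.931%), Olfr159, Olfr221, Olfr464 and Olfr71, and vomeronasal receptor genes 2 of 352 (0.568%), Vmn1r1 and Vmn1r85. Collagen genes had 1 of 42 (2.38%, 0.422 to 12.3%), Col1a1, but 7 of 42 (16.7%) when all windows were moved by 50 kb, against 15.9% of all protein-coding genes. Keratin and keratin-associated genes had 10 of 101 in 3 windows (9.90%, 5.47 to 17.3%), an interval that includes 16.1%. None of the 32 imprinted genes lay in dense windows (interval up to 10.7%). This list includes lncRNA genes such as H19 and Meg3, and of all lncRNA genes 9.74% lay in dense windows. The windows of the 32 held 0 to 7 CTCF peaks with a median of 3, Zrsr1 having the 7. With windows moved by 50 kb 5 of the 32 lay in dense windows (15.6%). The low counts of collagen and imprinted genes thus depend on where the windows start. H19, whose imprinting control region is a known CTCF-bound insulator, lay in a window of 6 CTCF peaks, and Igf2 in one of 3. Replication-dependent histone genes had 1 of 63 (1.59%), H2bu2, but 36 of 63 (57.1%) lay in windows of 6 or more CTCF peaks, against 30.6% of all protein-coding genes, so that their place depends on the threshold. Of 11 genes of cohesin, its regulators and CTCF, Smc3 alone lay in a dense window (9.09%, 1.62 to 37.7%), an interval that includes 16.1%.

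**Figure D5:**
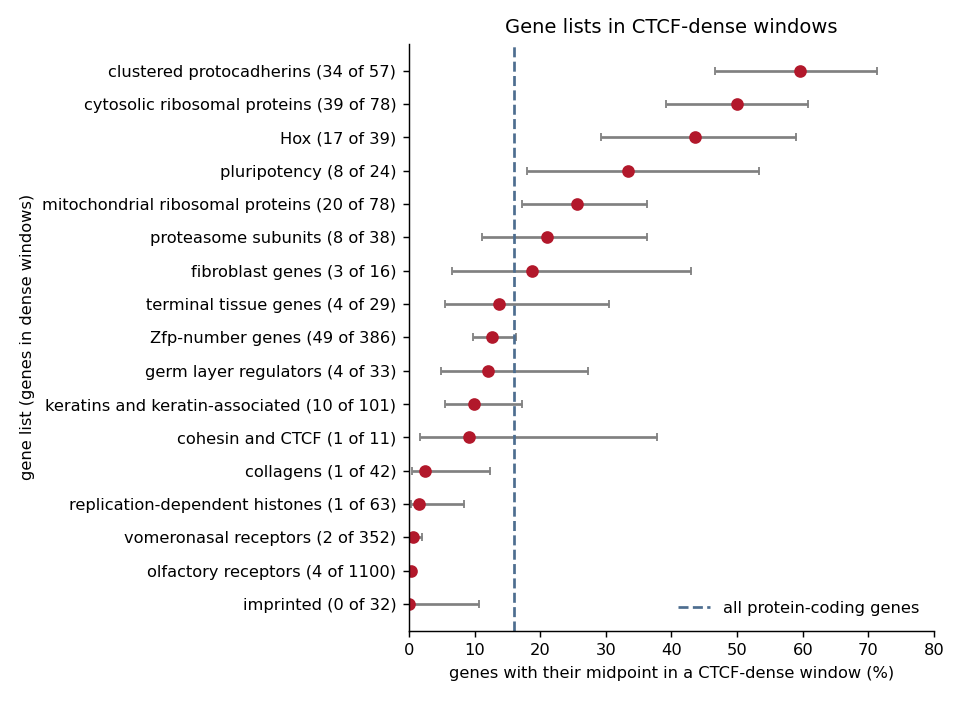
Share of the members of each gene list whose midpoint lies in a CTCF-dense window (x axis, percent; lists on the y axis with the number in dense windows and the number on the autosomes); bars are Wilson 95% intervals and the dashed line is the share of all protein-coding genes (16.1%). Protocadherin, cytosolic ribosomal protein, Hox and pluripotency genes lie right of the line, and receptor genes left of it. Collagen, imprinted and histone genes are also left of it, but with windows moved by 50 kb collagen genes (16.7%) lie right of it and imprinted genes (15.6%) close to it, and with 6 or more CTCF peaks histone genes (57.1%) lie right of theirs.

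Genes of differentiated cells had shares whose intervals include 16.1%. Terminal tissue genes had 4 of 29 members in dense windows (13.8%, 5.50 to 30.6%), Acta1, Krt14, Nphs1 and Tnnt2, and only Tnnt2 had H3K4me3 at an end. Fibroblast genes had 3 of 16 (18.8%, 6.59 to 43.0%), Col1a1, Pdgfra and S100a4, none with H3K4me3 at an end. Of all protein-coding genes in dense windows 72.2% had H3K4me3 there.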

How the data were processed

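Peak lists of ChIP-exo libraries (H3K4me3, CTCF, RAD21) in Bruce-4 mouse embryonic stem cells were used. The authors deposited each list as chromosome, start and end, a unit other than counts or scores. Per the submitters' processing notes the build was mm10, and the tools included MACS2, bedtools 2.30.0, Bowtie2 2.4.5 and Picard 2.27.4. Their roles, the calling threshold and any control library, on which the called peaks depend, were not given in the sources used here. Depth was unknown.

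Windows of 100 kb were counted in Python 3.11.15 (numpy 2.4.6, pandas 2.3.3, scipy 1.17.1, matplotlib 3.10.9), with code checked on simulated positions. Peaks and genes were placed by midpoint, and overlap was 1 bp or more. Genes came from RefSeq for GRCm38.p6, without strand except in the promoter table, so a gene end is either annotated end. Promoters of chromosome 18 were not analysed here.

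The members and the gene lists were chosen with earlier results of these data known, and the histone list was trimmed of variant histones after its values were seen. Windows were named for the most CTCF (10), the longest runs (5), and 5 each for the most CTCF without a coding gene or without H3K4me3, the most RAD21 without CTCF, the fewest RAD21, the most coding genes and the most H3K4me3. Genes named were those with midpoints there, up to 5 a window, marked ones first, and up to 4 per list. Overlapped genes, the listed pluripotency genes beyond 4, list members outside dense windows and names that complete a count were chosen after values were seen.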

Additional observations from a re-analysis of the deposited data

How the results depend on the processing

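A value counted as moved when it shifted by more than the SD over autosomes of the reported difference, or more than its Wilson interval for shares, or a count by over 1.5 times. Dense windows numbered 2628 with 6 or more CTCF midpoints, 405 with 10 or more and 3929 as 50 kb windows with 4 or more, and 702 when CTCF peaks of 37 to 39 bp were left out, an alternative chosen after seeing the data. These settings gave dense minus other differences in RAD21 of 5.48, 7.17, 3.46 and 6.82 peaks in the same order. With 50 kb windows the differences were 0.851 protein-coding genes and 1.25 H3K4me3 peaks. The difference in the share of CTCF peaks with RAD21 was -8.22 percentage points with 10 or more midpoints and -6.26 with 50 kb windows. The share of dense windows with a dense neighbour was 41.5% without the 2 shortest CTCF peak lengths, 39.1% with CTCF peaks within 1 kb merged, 60.2% with 6 or more midpoints, 30.4% with 10 or more, and 36.9% without CTCF peaks of 37 to 39 bp. Set against other windows with 1 or more peaks, the RAD21 difference was 5.62. Set against windows of 5 to 7 CTCF peaks, the differences were 1.08 protein-coding genes, 2.43 RAD21 peaks, 1.39 H3K4me3 peaks and -4.65 percentage points of CTCF with RAD21. RAD21 without CTCF reversed there, at -0.121 peaks, which is within the SD over autosomes. The cause of these shifts was not tested, beyond the smaller or denser windows that each setting defines.

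Under all alternatives run, dense windows held more protein-coding genes (0.851 to 2.52 more), more RAD21 (2.43 to 7.17) and more H3K4me3 (1.25 to 3.38), and a smaller share of their CTCF peaks overlapped RAD21 (-8.22 to -4.65 percentage points). Of 17 gene lists 7 lay above the share of all protein-coding genes, and 6 to 9 did under the alternatives. With windows moved by 50 kb the collagen list (16.7%) and the cohesin and CTCF list (18.2%) passed above the 15.9% of all protein-coding genes. The histone and terminal tissue lists passed above it with 6 or more midpoints and with 50 kb windows, the germ layer list with 50 kb windows (27.3% against 22.9%), and the fibroblast list fell below it in 5 settings. No paired analysis was possible because each antibody had 1 peak list. For the same reason no replicate could be left out. Peak heights and depth were unknown, so weak and strong sites count alike.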

Other observations

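The X chromosome, which the rule leaves out, had 3 windows with 8 or more CTCF midpoints among 1707 (0.176%). A pair of them adjoined at chrX:50500001-50700000, with 13 and 10 CTCF peaks, 16 and 15 RAD21 peaks, 1 and 2 H3K4me3 peaks and no protein-coding gene midpoint. The remaining one, at chrX:8000001-8100000, had 8 CTCF, 8 RAD21 and 3 H3K4me3 peaks and 3 protein-coding genes. With X added to the autosomes the differences between dense and other windows stayed within the SD over autosomes for genes, RAD21 and H3K4me3.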
